A study of Rattus norvegicus with 12 samples.

Results

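The genes described here are the matrix metalloproteinases (Mmp), their tissue inhibitors (Timp), the ADAM, ADAMTS and ADAMTS-like proteins, and the lysyl oxidases. They were chosen by name: gene symbols that start with Mmp, Timp or Adam followed by a number or a family suffix, together with Lox and Loxl1 to Loxl4. A gene was kept where its mean reached 0.5 CPM (the counts-per-million unit) in at least 1 of 4 groups. Of 81 such genes 54 were kept, out of 30206 genes in the table. They were 11 Mmp, 4 Timp, 11 Adam, 18 Adamts, 5 Adamtsl and 5 lysyl oxidase genes. The metalloproteinase Mmp12 was left out by the same rule.

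The RNA came from the pubocaudalis, a pelvic floor muscle, of 3-month-old female Sprague-Dawley rats. All animals were pregnant and underwent simulated birth injury (SBI), a vaginal balloon distension performed before delivery, so every group carried the injury and uninjured muscle was not analysed here. Dams whose pups were taken away after birth formed the non-lactating groups 1wk SBI and 3wk SBI, and dams that nursed formed 1wk SBI + Lac and 3wk SBI + Lac, with tissue taken 1 or 3 weeks after injury. Each group had 3 libraries, and each library pooled RNA of 2 rats, so differences between the 2 animals of a pool cannot be seen.

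Extracellular matrix is built and taken apart by enzymes that work outside the cell or at its surface. Mmp, Adam and Adamts proteins are zinc proteases that cut collagens, proteoglycans and membrane-anchored proteins, Timp proteins block them, and lysyl oxidases cross-link collagen and elastin fibres. In injured skeletal muscle these enzymes are best known from fibroblasts, macrophages and regenerating fibres, which clear and rebuild the matrix around the fibre.

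Total counts ran from 10082734 to 75634391 per library, and the 54 genes held 0.0775% to 0.198% of them. Levels are normalized CPM, in which TMM factors correct each library total, and differences are given as log2 fold changes from edgeR's quasi-likelihood test over 14599 genes. A gene passed where its Benjamini-Hochberg adjusted p was under 0.05 and its absolute log2 fold change was over 1. All 54 genes were tested. The 11 skeletal muscle marker genes tested summed to 96212 to 228800 normalized CPM. Within 3wk SBI, replicate 3 stood apart: it was the highest of its group for 43 of the 54 genes, against 35.6% of all genes tested, and it was also the deepest library. Replicate 3 of 1wk SBI + Lac was the highest of its group for 34 genes, against 32.6% of all genes. Replicate 3 of 3wk SBI + Lac, at 10704307 counts, was the lowest of its group for 33 genes, against 41.2% of all genes.

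Of the genes left out, 14 had no count in any library and 25 had under 100 counts in all. The interstitial collagenases Mmp8 and Mmp13 and the stromelysins Mmp3 and Mmp10 were among them, with highest group means of 0.111, 0.208, 0.115 and 0.117 CPM. Just above the minimum were Adamts3 at 0.533, Adam1a at 0.756 and Mmp9 at 0.826 CPM, and just under it were Adam11 at 0.399 and Adamts18 at 0.386 CPM. In all 4 groups, 47 of the 54 genes reached the minimum.

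Across the 4 groups the commonest order had 1wk SBI at the top and 3wk SBI + Lac at the bottom. This order of group means held for 31 of the 54 genes and for 23.2% of all genes tested. Among the 31, Adamts3 reached the 0.5 CPM minimum only in 1wk SBI, and Adamts4, Mmp16 and Mmp25 missed it only in 3wk SBI + Lac. The choice of these genes therefore favoured this order. The 1-week columns hold whole counts and the 3-week columns decimals, so time and counting cannot be told apart in it. The opposite order was found for 7 genes, against 19.9% of all genes. Those 7 were Adamts1, Adamts13, Adamts20, Adamtsl3, Adamtsl4, Adamtsl5 and Timp4. The groups without overlap between libraries at both times numbered 9 genes on the lower side with lactation, against 3.24% of all genes, namely Adam12, Adam17, Adamts7, Adamts12, Adamts14, Adamts15, Adamts17, Loxl2 and Mmp14. On the higher side they were 3, Adamts1, Adamts13 and Adamtsl3, against 5.38% of all genes.

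**Figure D1:**
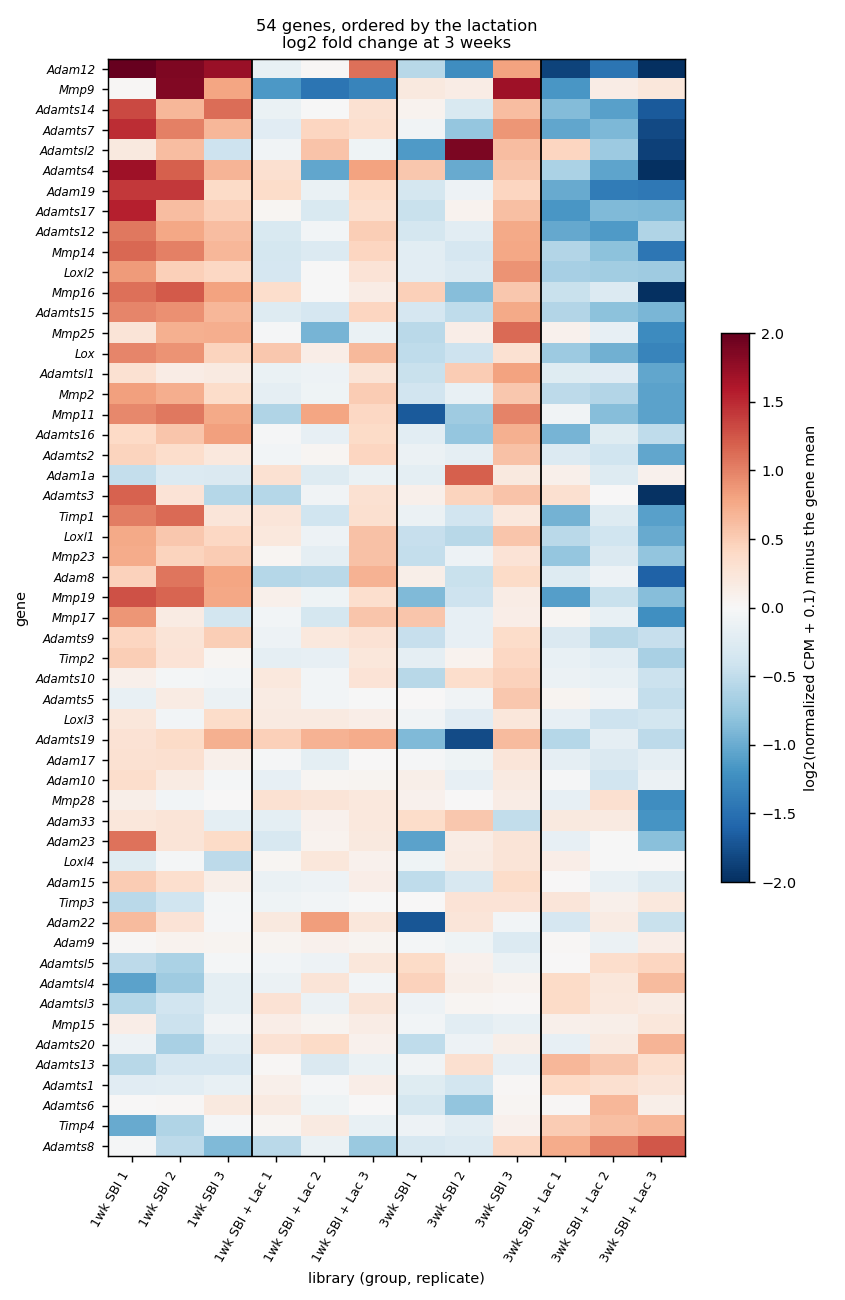
Each row is 1 of the 54 genes and each column 1 of the 12 libraries, and colour is log2(normalized CPM + 0.1) minus the gene's mean over the libraries, cut at 2 log2 units on either side. Rows run from the lowest to the highest lactation log2 fold change at 3 weeks; red is densest in 1wk SBI, blue in 3wk SBI + Lac, and replicate 3 of 3wk SBI is redder than replicates 1 and 2 of its group.

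The first comparison asked whether nursing went with different protease and cross-linking transcripts 1 week after injury. None of the 54 genes passed, on either side, where 0.164% of all genes passed as lower and 0.089% as higher in lactating rats. At an unadjusted p under 0.05, edgeR put 14 genes lower, against 9.16% of all genes, and 8 higher, against 9.76%. The fold change was below 0 for 37 of the 54 genes, against 50.5% of all genes, and the median was -0.28 against -0.0038 over all genes. No overlap between libraries was found for 15 genes on the lower side, against 14.1% of all genes, and for 8 on the higher side, against 14.3%. DESeq2 passed 2 genes over all 12 libraries, Adamts14 and Mmp9, where 153 of 13812 genes passed as lower. Mmp9, which is also among the 14 and the 15 lower genes, reached the 0.5 CPM minimum only in the 2 non-lactating groups. Its choice therefore favoured a lower value with lactation. Without replicate 3 of 1wk SBI, edgeR passed 3 as lower, Adam19, Mmp9 and Mmp19, where 171 of 14803 genes did. In the fit reported it was 24 of 14599. Without replicate 1 of 1wk SBI none of the 54 genes passed, where 3 of 14725 genes passed as lower. The median was then -0.16, and 34 of the 54 genes were below 0.

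At 3 weeks 2 genes passed as lower in lactating rats, Adam19 and Adamts14, against 0.534% of all genes, and none passed as higher, against 0.205%. Adamts1 passed the adjusted p but not the fold cutoff, on the higher side, where 1.35% of all genes did. On the lower side 1.19% of all genes passed the adjusted p alone. At an unadjusted p under 0.05, 18 genes were lower, against 11.2% of all genes, and 6 higher, against 9.88%. The fold change was below 0 for 42 of the 54 genes, against 52.3% of all genes, and the median was -0.49 against -0.019 over all genes. Libraries did not overlap for 13 genes on the lower side, against 10.4% of all genes, and for 6 on the higher side, against 11.9%. The count of lower genes that passed was 0 without any single library of 3wk SBI + Lac or without replicate 1 or 3 of 1wk SBI + Lac, 1 without replicate 2 of 1wk SBI or of 1wk SBI + Lac, and 5 without replicate 1 of 3wk SBI. Lower calls over all genes ran from 8 to 106 when each library was left out, in place of 78. The most came without replicate 1 of 3wk SBI. Without replicate 3 of 3wk SBI none of the 54 genes passed, the median was -0.16 and 37 genes were below 0. In that fit 14 and 9 genes did not overlap, against 15.2% and 16.1% of all genes. Leaving out replicate 3 of 3wk SBI + Lac gave a median of -0.32, with 39 genes below 0.

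Of 11 fibroblast markers 8 were below 0 with lactation at 1 week and 9 at 3 weeks, with medians of -0.17 and -0.21, and none passed. Their sum, in which abundant genes weigh most, was 6749 to 8971 normalized CPM in 1wk SBI, 4961 to 7778 in 1wk SBI + Lac, 4646 to 8235 in 3wk SBI and 3282 to 4667 in 3wk SBI + Lac. The highest sum of 1wk SBI + Lac and that of 3wk SBI were both in replicate 3. Fewer cells of a type and less RNA per cell cannot be told apart in such bulk libraries. Of the 15 macrophage markers 14 were below 0 with lactation at 1 week and 15 at 3 weeks, with medians of -0.47 and -0.45, and all 9 T cell markers tested were below 0 at both times. The median of 9 regenerating fibre markers was -1.22 at 1 week and -0.38 at 3 weeks. Skeletal muscle markers ran the other way: 0 of 11 were below 0 at 1 week and 2 at 3 weeks, with medians of 0.49 and 0.26, and their sums were 141680 to 190840 normalized CPM in 3wk SBI against 205200 to 228800 in 3wk SBI + Lac, without overlap. The part of these cells in the protease values was not tested.

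**Figure D2:**
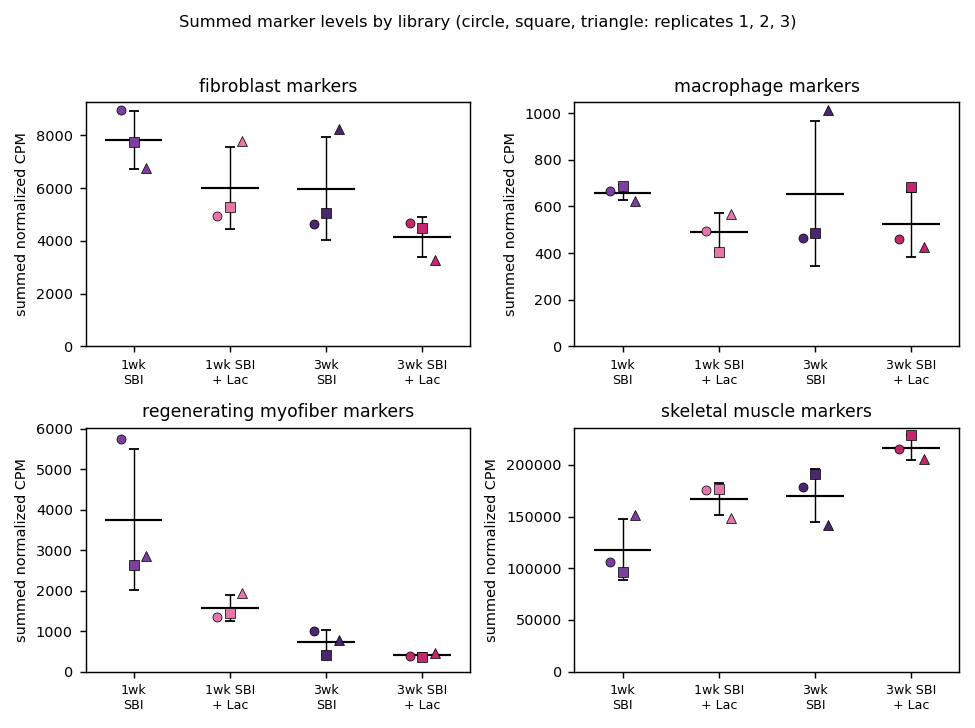
Summed normalized CPM of the fibroblast, macrophage, regenerating myofiber and skeletal muscle marker lists, with 1 point per library, a line at the group mean and bars of 1 SD (n = 3). Fibroblast sums were between 3282 and 4667 in 3wk SBI + Lac, and replicate 3 of 3wk SBI, at 8235, is the highest of its group in both the fibroblast and the macrophage panel.

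The ADAM proteins are membrane-anchored proteases that release growth factors, cytokines and adhesion molecules from the cell surface. Adam19 (ENSRNOG00000042980), a sheddase of neuregulin-type growth factors, was measured at 124, 125 and 61.3 normalized CPM in 1wk SBI and, with nursing, at 60.4, 42.5 and 61.5. At 3 weeks it was at 36.8, 43.8 and 63.0 in non-lactating and 23.2, 17.8 and 17.4 in lactating libraries. At 3 weeks every lactating library lay under every non-lactating library, whereas at 1 week the third non-lactating library fell within the lactating range. Adam19 fell by 1.31 on the log2 scale with lactation at 3 weeks (SE 0.29, n = 3 per group, edgeR quasi-likelihood adjusted p = 0.0418), and its fold change at 1 week was -0.92 (SE 0.28, edgeR adjusted p = 0.115). It passed in 4 of 12 fits that each left out 1 library, with adjusted p from 0.00729 to 0.173, the last without replicate 3 of 3wk SBI. With any of the 3 nursing libraries of 3 weeks left out, its adjusted p was 0.0901 to 0.124, and it was 0.0519 to 0.0581 without replicate 2 of 1wk SBI, replicate 1 or 3 of 1wk SBI + Lac or replicate 2 of 3wk SBI.

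Adamts14 (ENSRNOG00000000563) belongs with Adamts2 and Adamts3 to the procollagen N-proteinases, which trim fibrillar procollagens before fibres assemble. Its levels were 4.25, 2.65 and 3.65 normalized CPM in 1wk SBI against 1.48, 1.63 and 2.03 in 1wk SBI + Lac, and 1.72, 1.30 and 2.57 in 3wk SBI against 0.847, 0.716 and 0.440 in 3wk SBI + Lac. Lactating libraries were under non-lactating ones at both times. Adamts14 fell by 1.45 on the log2 scale at 3 weeks (SE 0.34, edgeR adjusted p = 0.0408), with -1.03 at 1 week (SE 0.30, edgeR adjusted p = 0.0969). It passed at 3 weeks in 5 of 12 fits that each left out 1 library, with adjusted p from 0.0291 to 0.222, the last again without replicate 3 of 3wk SBI. It was 0.0938 to 0.116 without any of the 3wk SBI + Lac libraries and 0.0538 to 0.0568 without any of those of 1wk SBI + Lac. Adamts2 was measured at -0.18 (SE 0.21) at 1 week and -0.67 (SE 0.22, edgeR adjusted p = 0.113) at 3 weeks, and Adamts3 at -0.69 (SE 0.68) and -0.65 (SE 0.73), with 0.533 CPM as its highest group mean.

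Adamts1 (ENSRNOG00000001607), a proteoglycanase that cuts versican and aggrecan, ran the other way. It was at 24.2, 24.5 and 25.3 normalized CPM in 1wk SBI against 30.2, 27.6 and 31.0 in 1wk SBI + Lac, and 23.7, 21.9 and 28.6 in 3wk SBI against 37.3, 35.3 and 33.5 in 3wk SBI + Lac. The lactating libraries were above the non-lactating ones at both times. The log2 fold change was 0.51 at 3 weeks (SE 0.11, edgeR adjusted p = 0.0235) and 0.26 at 1 week (SE 0.10, edgeR adjusted p = 0.186). Leaving out each library in turn gave adjusted p of 0.0143 to 0.102 at 3 weeks, the highest without replicate 1 of 3wk SBI + Lac, and was also over 0.05 without replicate 2 of 3wk SBI (0.0621) or replicate 2 of 3wk SBI + Lac (0.0807). With total counts in place of TMM scaling it was 0.237.

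The upstream sequences of these 3 genes are shown because they are the members past the adjusted p with lactation. Each is the 250 bases before the annotated start in the RefSeq promoter table for GRCr8, read 5′ to 3′ on the gene's strand, and capitals mark TGANTCA, the element that AP-1 factors recognize and a classical feature of metalloproteinase promoters. The windows are chr10:30992511-30992760 on the plus strand for Adam19, chr20:29762683-29762932 on the minus strand for Adamts14 and chr11:38427385-38427634 on the minus strand for Adamts1, with GC contents of 62.8%, 76% and 65.2%.
Adam19: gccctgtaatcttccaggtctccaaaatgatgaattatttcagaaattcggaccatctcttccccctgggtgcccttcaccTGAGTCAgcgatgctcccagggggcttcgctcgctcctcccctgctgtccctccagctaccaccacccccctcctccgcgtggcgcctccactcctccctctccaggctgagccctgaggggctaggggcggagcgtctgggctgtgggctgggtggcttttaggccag
Adamts14: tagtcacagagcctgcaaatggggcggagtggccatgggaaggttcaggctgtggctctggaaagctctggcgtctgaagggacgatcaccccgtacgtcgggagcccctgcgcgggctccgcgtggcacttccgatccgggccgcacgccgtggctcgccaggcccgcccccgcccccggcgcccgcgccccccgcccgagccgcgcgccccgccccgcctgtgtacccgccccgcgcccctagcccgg
Adamts1: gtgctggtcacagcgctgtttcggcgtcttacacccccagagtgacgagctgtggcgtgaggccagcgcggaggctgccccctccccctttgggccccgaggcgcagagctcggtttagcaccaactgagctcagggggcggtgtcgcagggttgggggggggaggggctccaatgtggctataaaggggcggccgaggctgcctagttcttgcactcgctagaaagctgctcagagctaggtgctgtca
Of the 54 genes 38 had an entry by symbol. The 16 without one were not scanned and include Mmp2, Mmp9, Mmp14, Mmp16, Mmp17, Mmp19, Lox and Loxl2. In windows of 300 bases, 250 before to 50 after the start, read on both strands, TGANTCA occurred in 1 of the 38, Adam19, with its first base 169 bases before the start. It occurred in 2453 of 33469 windows of the table, or 7.33%. Windows without the motif lack only these letters.

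Adam12, a protease of fibroblasts and fusing myoblasts, had the lowest fold change of the 54 genes at 3 weeks, with a wide error. Its levels were 52.1, 31.5 and 28.8 normalized CPM in 1wk SBI against 7.77, 8.75 and 18.5 in 1wk SBI + Lac, and 5.79, 3.59 and 15.0 in 3wk SBI against 2.31, 3.04 and 1.10 in 3wk SBI + Lac. No lactating library reached the lowest non-lactating one at either time, though replicate 3 of both middle groups stood well above its group. The fold changes were -1.67 (SE 0.51, edgeR adjusted p = 0.128) and -1.87 (SE 0.60, edgeR adjusted p = 0.120), and without replicate 3 of 3wk SBI the latter was -0.89. DESeq2 passed Adam12 at 3 weeks and, on the libraries compared, also at 1 week. Without replicate 3 of 3wk SBI it passed at 1 week as well (edgeR adjusted p = 0.0442).

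None of the other Adam genes passed. Adam17, the tumour necrosis factor convertase, had fold changes of -0.31 (SE 0.11) and -0.28 (SE 0.11), without overlap between groups at either time (edgeR adjusted p = 0.137 and 0.169). Adam10, a sheddase of Notch and cadherins, was at -0.19 and -0.23. Adam9, a widely expressed sheddase, held between 84.2 and 111 normalized CPM in every library and had fold changes of 0.019 (SE 0.097) and 0.14 (SE 0.098). Among 9 Adam genes with a catalytic motif, 7 were below 0 at 1 week and 8 at 3 weeks.

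None of the Mmp genes passed with lactation at either time. Mmp2, the constitutive gelatinase of fibroblasts, was at 313, 293 and 229 normalized CPM in 1wk SBI against 158, 167 and 253 in 1wk SBI + Lac, and 137, 161 and 259 in 3wk SBI against 124, 119 and 85.0 in 3wk SBI + Lac. Its groups overlapped at 1 week and not at 3 weeks, with fold changes of -0.53 (SE 0.25) and -0.77 (SE 0.25, edgeR adjusted p = 0.109). Mmp14, the membrane-bound collagenase that activates pro-Mmp2, was at 147, 133 and 105 in 1wk SBI against 52.1, 55.0 and 89.0 in 1wk SBI + Lac, and 57.1, 52.5 and 114 in 3wk SBI against 44.1, 37.8 and 24.4 in 3wk SBI + Lac. Lactating libraries of Mmp14 were lower throughout, with fold changes of -0.97 (SE 0.33, edgeR adjusted p = 0.145) and -1.07 (SE 0.33, edgeR adjusted p = 0.106).

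Mmp9, the gelatinase of neutrophils and macrophages, was scarce, and it reached the 0.5 CPM minimum only in the 2 non-lactating groups, so its choice favoured a lower value with lactation and its ratios are given as a description. It was at 0.272, 1.23 and 0.539 normalized CPM in 1wk SBI against 0.0656, 0.0339 and 0.0478 with nursing, from 113 and 5 counts in all. The ratio of the groups at 1 week was 14.0, with a 95% exact counting interval of 5.83 to 44.0, which covers counting error only. Libraries did not overlap, and edgeR gave -3.71 (SE 0.87, adjusted p = 0.0591). The call depended on the settings: DESeq2, edgeR on the 6 libraries compared, no low-count filter, and edgeR without replicate 3 of 1wk SBI or of 3wk SBI all passed it. At 3 weeks it was at 0.322, 0.310 and 1.09 in 3wk SBI and 0.0651, 0.309 and 0.330 in 3wk SBI + Lac, with 99 and 24 counts and a ratio of 3.84 (2.44 to 6.28), and the groups overlapped. Neutrophil markers summed to 3.46 to 6.22 normalized CPM in 1wk SBI against 2.23 to 2.68 with nursing, and to 0.495 to 4.72 against 0.977 to 1.69 at 3 weeks, with Ltf and Elane at 0 in every library. Their part in the Mmp9 values was not tested.

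Mmp19, a protease of basement membrane proteins, was at 12.8, 11.8 and 9.04 normalized CPM in 1wk SBI against 5.64, 4.95 and 6.64 in 1wk SBI + Lac, and at 2.79, 3.90 and 5.79 in 3wk SBI against 2.38, 3.81 and 2.86 in 3wk SBI + Lac. The groups did not overlap at 1 week and overlapped at 3 weeks, with fold changes of -0.96 (SE 0.23, edgeR adjusted p = 0.0632) and -0.52 (SE 0.26). Of the 6 membrane-bound Mmp genes 5 were below 0 at each time. The exception was Mmp15, at 0.22 (SE 0.12) and 0.29 (SE 0.12, edgeR adjusted p = 0.196).

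None of the 4 Timp genes passed with lactation at either time. Timp1, the inducible inhibitor, was at -0.77 (SE 0.27) and -0.62 (SE 0.30), and Timp2, which helps Mmp14 to activate Mmp2, at -0.31 (SE 0.18) and -0.44 (SE 0.18). Timp3, the matrix-bound inhibitor that also blocks Adam17 and Adamts proteases, was at 0.26 (SE 0.12) and -0.0085 (SE 0.12), and the sign at 3 weeks turned in 4 of the alternative fits. Timp4, known for its expression in striated muscle, was at 5.38, 7.22 and 10.8 normalized CPM in 1wk SBI against 11.2, 12.5 and 9.91 in 1wk SBI + Lac, and 10.2, 9.41 and 11.6 in 3wk SBI against 15.6, 16.7 and 17.5 in 3wk SBI + Lac. Its libraries overlapped at 1 week but not at 3 weeks, with fold changes of 0.53 (SE 0.20) and 0.66 (SE 0.20, edgeR adjusted p = 0.0911).

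The proteoglycanases of the Adamts family split. Adamts15 was lower without overlap at both times, at -0.87 (SE 0.29) and -0.91 (SE 0.31), while Adamts8, of the same group, was at 1.86, 1.28 and 0.984 normalized CPM in 1wk SBI against 1.28, 1.73 and 1.10 in 1wk SBI + Lac, and 1.5, 1.55 and 2.59 in 3wk SBI against 3.22, 3.92 and 4.62 in 3wk SBI + Lac. The nursing libraries at 3 weeks were the highest of all 12, and the fold changes were -0.022 (SE 0.32) at 1 week and 0.97 (SE 0.32, edgeR adjusted p = 0.105) at 3 weeks. Adamts7 and Adamts12, which cleave cartilage oligomeric matrix protein, were both lower without overlap at both times. Adamts7 was at -0.89 (SE 0.35) and -1.41 (SE 0.39, edgeR adjusted p = 0.0712), and Adamts12 at -0.74 (SE 0.28) and -1.15 (SE 0.30, edgeR adjusted p = 0.0676). DESeq2 over all 12 libraries passed both at 3 weeks, where 188 of 13812 genes passed as lower. Without replicate 3 of 3wk SBI their edgeR fold changes at 3 weeks were -0.69 and -0.68. Adamts13, the von Willebrand factor protease, was higher without overlap at 1 week (0.28, SE 0.15) and at 3 weeks (0.50, SE 0.16, edgeR adjusted p = 0.0943).

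The Adamts-like proteins have no protease domain and bind fibrillin-rich matrix. At 1 week 3 of 5 were above 0, Adamtsl3 at 0.53 (SE 0.15, edgeR adjusted p = 0.0845), Adamtsl4 at 0.66 (SE 0.19, edgeR adjusted p = 0.105) and Adamtsl5 at 0.42 (SE 0.17). At 3 weeks these were at 0.27, 0.20 and 0.15, and Adamtsl1 was at -0.83 (SE 0.26, edgeR adjusted p = 0.101). Adamtsl2 was at 0.429, 4.21 and 1.68 normalized CPM in 3wk SBI against 1.47, 0.602 and 0.220 in 3wk SBI + Lac. These libraries overlapped, with a fold change of -1.37 (SE 0.64, edgeR adjusted p = 0.241), against -0.032 (SE 0.60) at 1 week. Without TMM scaling Adamtsl5 was at -0.026 at 3 weeks.

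All 5 lysyl oxidases were below 0 with lactation at 3 weeks and 4 of 5 at 1 week, and none passed. Lox, the founding member, was at 24.7, 23.5 and 17.1 normalized CPM in 1wk SBI against 18.3, 13.7 and 19.6 in 1wk SBI + Lac, and 8.80, 9.35 and 15.5 in 3wk SBI against 7.55, 6.41 and 4.95 in 3wk SBI + Lac. Its groups overlapped at 1 week and not at 3 weeks, with fold changes of -0.34 (SE 0.21) and -0.84 (SE 0.24, edgeR adjusted p = 0.0706). Loxl2, which acts on basement membrane collagen, was at 68.4, 52.9 and 50.6 in 1wk SBI against 30.0, 37.6 and 45.7 in 1wk SBI + Lac, and 32.8, 31.5 and 70.8 in 3wk SBI against 23.8, 23.3 and 23.2 in 3wk SBI + Lac. Its libraries did not overlap at either time, with -0.60 (SE 0.27, edgeR adjusted p = 0.263) and -0.97 (SE 0.28, edgeR adjusted p = 0.0904). Loxl1, an elastin cross-linker, was at -0.32 and -0.57, Loxl3 at -0.028 and -0.33, and Loxl4 at 0.38 and -0.089.

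**Figure D3:**
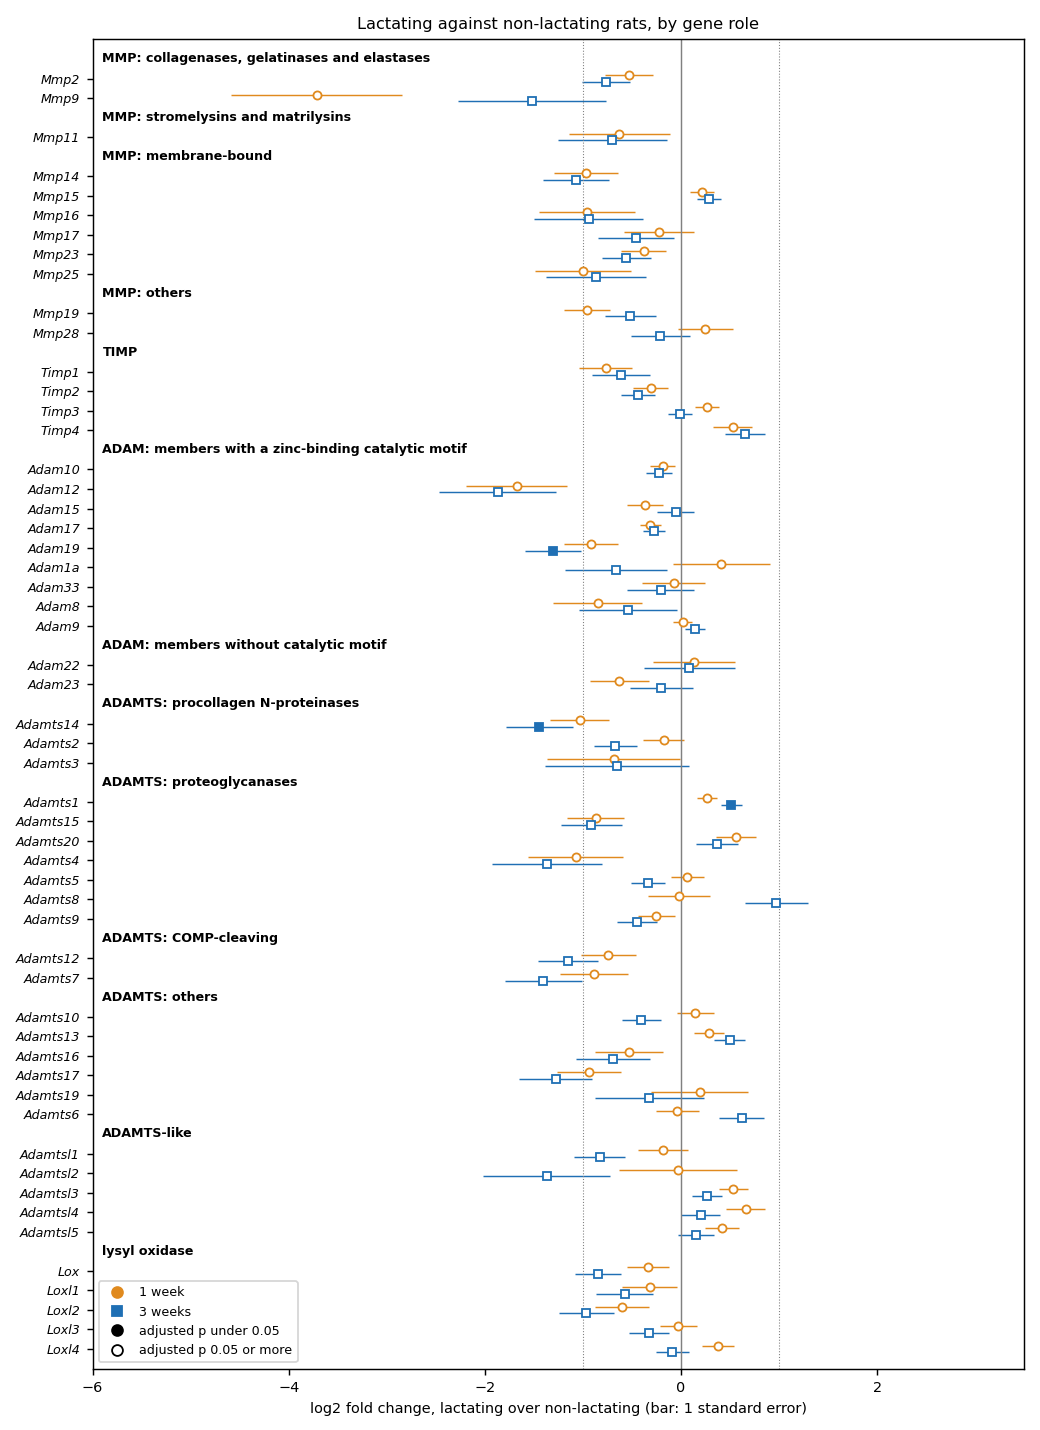
Log2 fold change of lactating over non-lactating rats with bars of 1 SE for the 54 genes by role, at 1 week (circles) and at 3 weeks (squares), from edgeR over 3 libraries per group. Filled symbols have an adjusted p under 0.05 and dotted lines mark a log2 fold change of 1 either way; only Adam19, Adamts14 and Adamts1 are filled, all at 3 weeks.

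**Figure D4:**
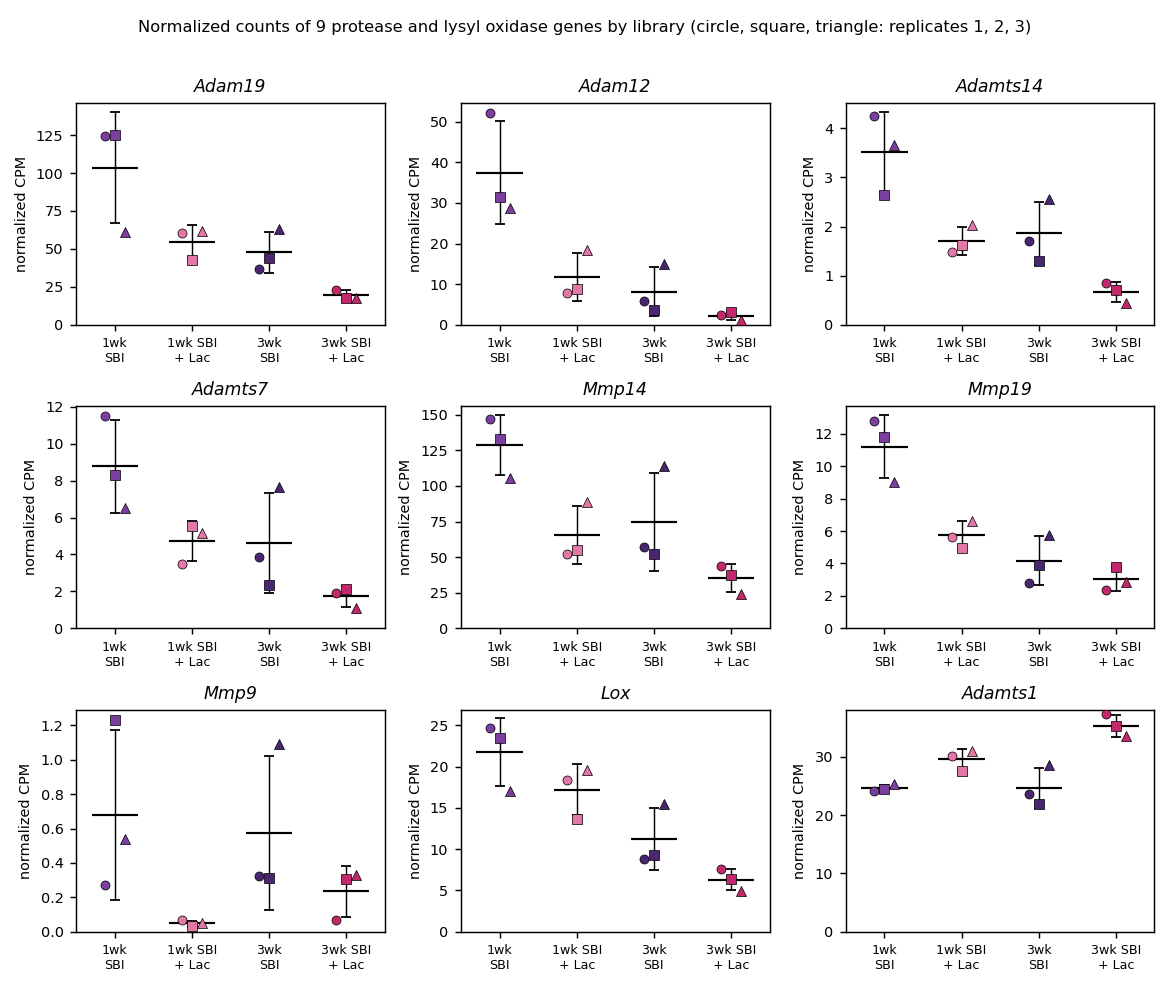
Normalized CPM of 9 genes, 1 point per library, with a line at the group mean and bars of 1 SD (n = 3). The nursing libraries of 3 weeks lie under the non-lactating ones for Adam19, Adam12, Adamts14, Adamts7, Mmp14 and Lox and above them for Adamts1, and overlap with them for Mmp19 and Mmp9.

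Whether the lactation difference itself changed between 1 and 3 weeks was tested as an interaction. No member passed on either side, where 0.00685% of all genes passed as lower and 0% as higher. By edgeR, no gene was under an unadjusted p of 0.05 on the lower side, against 2.75% of all genes, and 1 on the higher side, against 1.67%, Adamts8 at 0.99 (SE 0.45, adjusted p = 0.999), and DESeq2 passed none. The lowest interaction was that of Adamtsl2, at -1.34 (SE 0.88, edgeR adjusted p = 0.999). The highest was that of the scarce Mmp9, at 2.2 (edgeR adjusted p = 0.999). The interaction of Adam19 was -0.39 (SE 0.40) and that of Adamts14 -0.41 (SE 0.45), so the passing of these genes at 3 weeks and not at 1 week does not show that the differences were unequal.

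The time comparisons ask how the transcripts stood at 3 weeks against 1 week. The deposited 1-week columns hold whole counts and the 3-week columns hold decimals, so time and counting cannot be told apart here. In non-lactating rats 2 genes passed as lower, against 1.1% of all genes, and none as higher, against 0.363%. Mmp19 fell by 1.35 on the log2 scale (SE 0.24, edgeR adjusted p = 0.00841) without overlap between libraries, and Adam19 fell by 1.10 (SE 0.28, edgeR adjusted p = 0.0474) with overlap. The adjusted p of Mmp19 was 0.0502 without replicate 1 of 1wk SBI and 0.0518 without replicate 2 of 3wk SBI, and Adam19 passed in 2 of the 12 such fits, without replicate 3 of 1wk SBI or of 3wk SBI.

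Without replicate 3 of 3wk SBI 14 genes passed as lower over time in non-lactating rats, in place of 2, and the median was -0.68 in place of -0.18. The calls over all genes rose as well, to 448 of 14763 as lower, in place of 160 of 14599. No overlap was then found for 31 genes on the lower side, against 25.5% of all genes, and for 11 with all libraries, against 11.4%. The 14 genes were Adam12, Adam19, Adamts7, Adamts12, Adamts14, Adamts15, Adamts16, Adamts19, Lox, Loxl1, Mmp11, Mmp14, Mmp19 and Timp1. Passing the adjusted p alone were Lox, at -0.91 (SE 0.22, edgeR adjusted p = 0.0325), Adamtsl4, at 0.84 (SE 0.20, edgeR adjusted p = 0.0278), and Timp3, at 0.51 (SE 0.12, edgeR adjusted p = 0.0284). The adjusted p of each of these 3 was over 0.05 without replicate 1 of 1wk SBI (0.156, 0.110 and 0.164), replicate 2 of 1wk SBI (0.114, 0.111 and 0.115) or replicate 2 of 3wk SBI (0.159, 0.0753 and 0.128). That of Lox and Adamtsl4 was also over 0.05 without replicate 1 of 3wk SBI (0.114 and 0.104), and that of Lox without replicate 1 of 1wk SBI + Lac (0.0516) or replicate 2 of 3wk SBI + Lac (0.0545). The adjusted p alone was passed by 2.42% of all genes on the lower and 2.63% on the higher side. With all libraries 5 genes were higher without overlap, against 10.2% of all genes. Adamtsl4 was at 37.5, 48.2 and 68.6 normalized CPM in 1wk SBI against 108, 85.6 and 83.2 in 3wk SBI, without overlap.

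In lactating rats 2 genes passed as lower over time, against 0.685% of all genes, and 1 as higher, against 0.089%. Lox (ENSRNOG00000014426) fell by 1.41 on the log2 scale (SE 0.23, edgeR adjusted p = 0.00923) and Adam19 by 1.49 (SE 0.29, edgeR adjusted p = 0.0312). Adamts8 (ENSRNOG00000005574) was the gene that rose, by 1.51 (SE 0.32, edgeR adjusted p = 0.0312). All 3 were without overlap. Without replicate 3 of 3wk SBI 6 genes passed as lower, in place of 2, where 162 of 14763 genes passed, in place of 100 of 14599. The adjusted p of Lox was 0.0520 without replicate 3 of 1wk SBI + Lac and 0.0672 without replicate 2 of 3wk SBI + Lac. Adam19 and Adamts8 each kept their call in 7 of 12 such fits, and lost it without replicate 1 or 3 of 1wk SBI + Lac or any library of 3wk SBI + Lac, with adjusted p up to 0.125 and 0.163. Adamts13 passed the adjusted p alone, at 0.66 (SE 0.15, edgeR adjusted p = 0.0426), and lost it in 7 of the 12 fits, with adjusted p up to 0.171. The adjusted p alone was passed by 1.33% of all genes as lower and 0.678% as higher.

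The fold change over time was below 0 for 37 of 54 genes in non-lactating rats, against 51% of all genes, and for 42 in lactating rats, against 52.3%. Medians were -0.18 and -0.42. The median in lactating rats was -0.23 without replicate 3 of 3wk SBI + Lac and -0.29 without replicate 3 of 1wk SBI + Lac. In lactating rats 23 genes were lower without overlap, against 14.7% of all genes, and 5 higher, against 13.4%. All 5 lysyl oxidases were below 0 in the lactating comparison, and 4 of them were without overlap, Lox, Loxl1 at -0.87 (SE 0.29), Loxl2 at -0.69 (SE 0.28) and Loxl3 at -0.48 (SE 0.20). Regenerating fibre markers had medians of -3.00 in non-lactating and -2.52 in lactating rats over the same time, with all 9 below 0 in both. The 2 time comparisons share no libraries with each other but each shares its groups with the lactation comparisons.

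**Figure D5:**
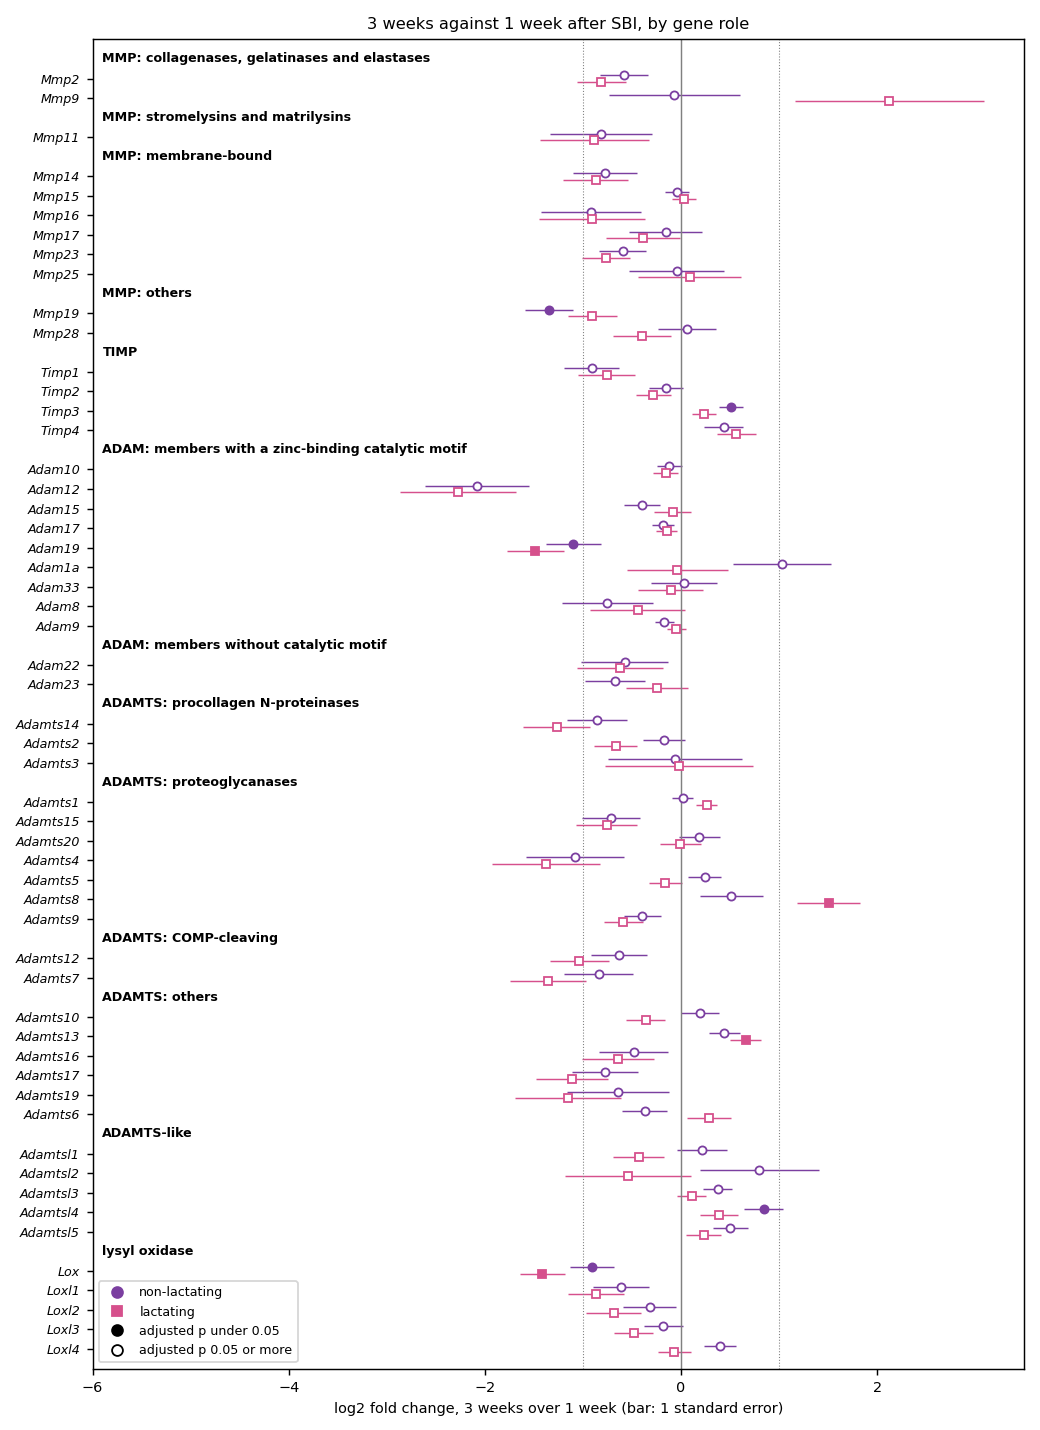
Log2 fold change of 3 weeks over 1 week with bars of 1 SE for the 54 genes by role, in non-lactating (circles) and lactating rats (squares), from edgeR over 3 libraries per group. Filled symbols have an adjusted p under 0.05; among them are Mmp19, Adam19 and Lox on the lower side and Adamts8, Adamtsl4, Timp3 and Adamts13 on the higher side.

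The proteins that activate, block, cross-link with or are cut by these enzymes were listed separately, 123 genes of which 107 were tested. At 1 week 87 of the 107 were below 0 with lactation, with a median of -0.21, and 26 were lower and 7 higher without overlap, against 14.1% and 14.3% of all genes. Past both cutoffs were 3 on the lower side and none on the higher side, against 0.164% and 0.089% of all genes. Cdh2, the N-cadherin that Adam10 sheds, fell by 1.67 on the log2 scale (SE 0.31, edgeR adjusted p = 0.0296). A2m, a broad trap for proteases made as an acute-phase protein in rats, fell by 1.78 (SE 0.35, edgeR adjusted p = 0.0357), and Prss35, a secreted serine protease-like protein, by 2.34 (SE 0.49, edgeR adjusted p = 0.0474). Prss35 was scarce, at 2.1, 1.8 and 1.2 normalized CPM in 1wk SBI against 0.20, 0.34 and 0.45 in 1wk SBI + Lac. None of the 3 overlapped between groups. The count was 0 without any library of the 1-week groups except replicate 3 of 1wk SBI, without which it was 6, and it was also 6 without replicate 3 of 3wk SBI and 1 without replicate 1 or 2 of 3wk SBI + Lac. With each library left out in turn, 1 to 171 of all genes passed as lower at 1 week.

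At 3 weeks 79 of the 107 were below 0, with a median of -0.35. Past both cutoffs was 1 of the 107, on the lower side, where 0.534% of all genes passed, and none on the higher side, against 0.205%. That gene was Papln, a papilin of the Adamts-like kind with protease inhibitor domains. It was at 6.65, 6.63 and 10.8 normalized CPM in 3wk SBI against 2.38, 2.31 and 3.63 in 3wk SBI + Lac, and fell by 1.65 (SE 0.32, edgeR adjusted p = 0.0174). Cathepsin K, a collagenase of bone and scar (Ctsk, -0.98, SE 0.21, edgeR adjusted p = 0.0311), and cathepsin Z (Ctsz, -0.68, SE 0.17, edgeR adjusted p = 0.0465) passed the adjusted p alone on the lower side. Il6r, an interleukin receptor that Adam17 sheds, did so on the higher side (0.78, SE 0.16, edgeR adjusted p = 0.0180). No gene of the list passed without replicate 3 of 3wk SBI or replicate 1 or 2 of 3wk SBI + Lac, while 3 passed without replicate 1 or 2 of 3wk SBI and 2 without replicate 1 of 1wk SBI + Lac. Over all genes, lower calls were 24 without replicate 3 of 3wk SBI, and 8 and 38 without replicates 1 and 2 of 3wk SBI + Lac. They were 106 and 103 without replicates 1 and 2 of 3wk SBI, and 62 without replicate 1 of 1wk SBI + Lac. The fit with all libraries gave 78.

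Of 19 matrix substrates tested 17 were below 0 with lactation at 1 week and 18 at 3 weeks, with medians of -0.45 and -0.73, and none passed. Over time their medians were -0.69 in non-lactating rats, where 2 passed, and -0.91 in lactating rats, where 2 passed and 17 of 19 were lower without overlap, against 14.7% of all genes. Over time in non-lactating rats 78 of the 107 related genes were below 0, and 8 passed both cutoffs as lower, against 1.1% of all genes, a count of 26 without replicate 3 of 3wk SBI and 13 without replicate 3 of 1wk SBI, and of 2 to 5 without any other library of these groups. In lactating rats 86 were below 0 and 4 passed as lower, against 0.685% of all genes, a count of 10 without replicate 3 of 3wk SBI and of 1 to 2 without replicate 2 or 3 of 1wk SBI + Lac or any library of 3wk SBI + Lac. With each library left out, lower calls over all genes ran from 47 to 448 in non-lactating and from 24 to 162 in lactating rats. The substrates that passed were Acan and Vcan in non-lactating rats and Eln and Fn1 in lactating rats. Acan was scarce, at 1.15, 0.455 and 0.492 normalized CPM in 1wk SBI against 0, 0 and 0.024 in 3wk SBI. Bgn, a small proteoglycan listed with the collagen partners, was lower over time in both (-1.49, SE 0.24, edgeR adjusted p = 0.00773; -1.70, SE 0.25, edgeR adjusted p = 0.00525).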

How the data were processed

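Polyadenylated RNA of the pubocaudalis was sequenced in 12 libraries made with a stranded mRNA kit, 3 per group, each from the pooled RNA of 2 rats. The authors deposited 1 table of gene-level values that were not normalized. The 1-week columns hold whole counts as deposited, and the 3-week columns, also deposited by the authors, hold estimated counts with decimals, which were rounded here. The submitters' processing notes name Salmon, with no version, and the genome build and annotation are not given in the sources used here.

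Genes were fitted with edgeR 4.0.16 in R 4.3.3 on all 12 libraries and 4 groups: filterByExpr (14599 genes kept), TMM scaling, a robust quasi-likelihood fit and Benjamini-Hochberg adjustment over all genes tested. Standard errors were derived from the fold change and the F statistic. DESeq2 1.42.0, RLE scaling, other filters, libraries thinned to the shallowest, a replicate block and the omission of each library were alternatives. The fit was tested on simulated data. No library was counted as a copy of another, since a chi-square test gave 21.0 to 101 for each degree of freedom between replicates. With 3 pools per group, p-values measure the spread between pools.

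The genes, the role groups, the marker lists and the 123 related genes were chosen with earlier results of these data known. Named genes were those past both cutoffs, the 5 with the smallest p per comparison and direction, the Timp and lysyl oxidase genes, the 5 with the highest levels, and Adam12, with others given within their role group; of the related genes, the 5 largest changes past both cutoffs per comparison and the 3 smallest p per lactation comparison, with Ctsz and Bgn, Vcan and Fn1 given beside their counts. Promoters are from RefSeq (GRCr8), matched by symbol with Python 3.11.15. Protein sequences were not analysed here.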

Additional observations from a re-analysis of the deposited data

How the results depend on the processing

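Counts below are genes past both cutoffs. With lactation at 1 week, lower members numbered 0 in the fit reported, 1 with no low-count filter, with edgeR on the libraries compared or with thinned libraries, 2 with DESeq2 on all 12 libraries and 3 with DESeq2 on the libraries compared. Lower calls over all genes in these fits were, in the same order, 24, 40, 90, 25, 153 and 289. The 1 member was Mmp9 with no low-count filter and with edgeR on the libraries compared, and Mmp19 with thinned libraries. Mmp9 was also among the members that passed in both DESeq2 fits, and its choice favoured a lower value with lactation. At 3 weeks lower members numbered 2, 1 with no filter, with at least 10 counts in every library, with edgeR on the libraries compared, with thinning or without TMM factors, 6 with DESeq2 on all libraries and 4 on those compared, and 1 higher member passed on adjusted p alone. For all genes the lower calls of these fits were 78, 69, 61, 46, 50, 110, 188 and 132. Over time without lactation lower members were 2, 1 with no filter or with edgeR on the libraries compared, and 2 higher members passed on adjusted p alone. Of all genes 160, 146 and 79 passed as lower in these fits. Over time with lactation lower members were 2, 1 with no filter, 5 with edgeR on the libraries compared, 6 and 7 with DESeq2 and 4 with thinning, and the 1 higher member became 2 on adjusted p alone and 0 with thinning or without TMM factors. Here 100, 79, 163, 210, 206 and 85 of all genes passed as lower. As higher, 13 of all genes passed in the fit reported, 99 on adjusted p alone, 9 with thinning and 4 without TMM factors. Of the 107 related genes, the 3 at 1 week became 1 with at least 10 counts in every library or without TMM factors and 5 and 9 with DESeq2. The 1 at 3 weeks became 4 on adjusted p alone, 2 with at least 10 counts or with edgeR on the libraries compared, and 4 and 3 with DESeq2. The 8 over time without lactation became 4 with at least 10 counts or with edgeR on the libraries compared, and the 4 with lactation became 11 and 13 with DESeq2. With at least 10 counts in every library, 13 of 11401 genes passed as lower at 1 week and 118 over time without lactation. Without TMM factors 18 of 14599 genes passed as lower at 1 week. The cause of these shifts was not tested.

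Leaving out each library in turn gave 0 to 3 lower members at 1 week, 0 to 5 at 3 weeks, 0 to 14 lower and 0 to 1 higher over time without lactation, and 0 to 6 lower and 0 to 1 higher with lactation. The lower calls over all genes ranged from 1 to 171, 8 to 106, 47 to 448 and 24 to 162 in these 4 comparisons. The related genes ranged from 0 to 6, 0 to 3, 2 to 26 and 1 to 10. Replicate numbers did not pair the samples (correlations of deviations -0.233 to -0.005). With the replicate block, lower members were 0 at 3 weeks and 1 over time in either state, higher members over time with lactation 0, and related genes 0 at 1 week and 2 over time with lactation. Lower calls over all genes with the block were 3 at 1 week, in place of 24, 39 at 3 weeks, and 132 without and 74 with lactation over time. Higher calls over all genes were 5 at 1 week and 7 over time with lactation, in place of 13 in each.

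Signs near 0 turned for Adam9 at 1 week (-0.011 with at least 10 counts, -0.027 thinned, -0.23 without TMM factors) and at 3 weeks (-0.029 without TMM factors), for Adamts10 (-0.096) and Adamts5 (-0.19) at 1 week and Adamtsl5 at 3 weeks (-0.026) without TMM factors, for Adamts8 at 1 week thinned (0.12) and for Timp3 at 3 weeks with the block (0.0022). With each library left out in turn, values at 1 week ranged from -0.0082 to 0.17 for Adamts5, -0.12 to 0.021 for Adamts6, -0.22 to 0.26 for Adamts8 and -0.14 to 0.068 for Loxl3, and at 3 weeks from -0.086 to 0.038 for Timp3. Dropping the TMM factors, an alternative chosen after seeing the data, moved the median of all genes to -0.25 at 1 week and -0.20 at 3 weeks, and the split of all calls at 1 week from 24 lower and 13 higher to 18 and 4. At least 10 counts in every library kept 40 of the 54 genes and thinning 52. The shallowest libraries, at 10082734 and 10704307 counts, limit the genes of low level such as Mmp9.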
